A study of Homo sapiens with 12 samples.

Results

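The genes described here are those whose change with Cisplatin, a platinum drug that crosslinks DNA, differed between A549 cells with a control shRNA and A549 cells with an shRNA against RNF113A. A549 is a human lung adenocarcinoma line. All cells had been infected with lentivirus and selected with puromycin at 1 µg/ml for 4 days. The 4 conditions were shControl untreated, shControl + cisplatin, shRNF113A untreated and shRNF113A + cisplatin, each with 3 libraries of strand-specific mRNA sequencing, and Cisplatin was given at 25 µg/ml for 20 h per the labels. For other assays the study states the dose in µM and, in part, a longer time, and the labels' values could not be checked. All 12 of the 12 libraries of the series were used. A single hairpin stood for the depletion, in 1 cell line, with 1 dose and 1 time point. For each of 15352 genes with enough counts, the interaction was the log2 fold change with Cisplatin in shRNF113A cells minus that in shControl cells. An interaction of 0 means that both effects add on the log2 scale. A positive interaction means that the gene ended higher in shRNF113A + cisplatin cells than the sum of both single effects, and a negative one that it ended lower. A gene was called when edgeR's quasi-likelihood test gave an adjusted p under 0.05 and the interaction was at least 2-fold, that is 1 on the log2 scale. Of the genes tested 196 were called, 1.28% of all.

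RNF113A is a RING-type E3 ubiquitin ligase that is also a component of the spliceosome, the machinery that removes introns from nascent RNA. Cisplatin lesions block RNA polymerase II, so that long genes are transcribed less completely, and they activate p53, the transcription factor that induces the cell cycle inhibitor CDKN1A and its own antagonist MDM2. Cells under amino acid, oxidative or endoplasmic reticulum stress raise the translation of ATF4, a factor that induces CHOP (the DDIT3 gene), TRIB3 and genes of amino acid synthesis and tRNA charging. Replication-dependent histone mRNAs usually end in a stem-loop without a poly(A) tail, so that a poly(A)-selected library holds mainly their polyadenylated forms.

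Levels are given as CPM, counts per 1000000 of the scaled library size, and the 3 values of a condition follow the replicate numbers 1, 2 and 3. RNF113A itself stood at 20.3, 19.5 and 19.8 CPM in shControl untreated cells and at 15.3, 15.8 and 16.8 CPM in shRNF113A untreated cells. With Cisplatin it stood at 31.5, 28.9 and 27.7 CPM in shControl cells and at 25.8, 24.3 and 29.9 CPM in shRNF113A cells. The untreated groups did not overlap, and the Cisplatin-treated groups did. RNF113A mRNA was lower in shRNF113A cells by 0.31 on the log2 scale without Cisplatin (adjusted p = 0.0247), the difference with Cisplatin was -0.14 (adjusted p = 0.233), and the interaction was 0.17 ± 0.13 (SE, adjusted p = 0.479). The mRNA data thus show a small depletion in untreated cells and none that passed the test with Cisplatin, and the protein was not measured in these libraries. The libraries held 33859097 to 56071514 read pairs. The 3 shRNF113A + cisplatin libraries had 9.05% to 9.62% of read pairs that overlapped no annotated exon, introns included, against 4.55% to 6.78% in the other 9. The replicate 2 libraries of shControl cells, untreated and with Cisplatin, stood apart from the other replicates of their groups. Without both of them 522 of 15459 genes tested were called, 258 of them positive, 264 negative and 171 shared with the 196.

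The called genes fell into 118 with a positive interaction (0.769% of all genes tested) and 78 with a negative interaction (0.508%). Fits that each lacked 1 library called between 75 (without shRNF113A untreated replicate 1) and 420 (without shControl untreated replicate 2) genes, and between 72 and 170 of them were among the 196. A block of the replicate number within each shRNA called 516, of which 319 were positive, 197 negative and 194 among the 196. The balance between the directions depends on how libraries are scaled to each other. When the scaling factors came from genes under 50 kb, 99 genes were positive and 106 negative, and when they came from genes of 50 kb or more, 156 were positive and 51 negative, with the median interaction of all genes at -0.0636 and 0.111 in place of 0.00. The medians of the ATF4 and CHOP, p53, squamous, histone, heat shock and ribosomal protein gene lists kept their sign under both scalings. The medians of the other lists described below were not computed under them. The positive genes were the less abundant ones, with a median of 5.02 CPM in the condition where each was highest, against 21.5 CPM for the negative genes and 29.9 CPM for all genes tested.

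**Figure D1:**
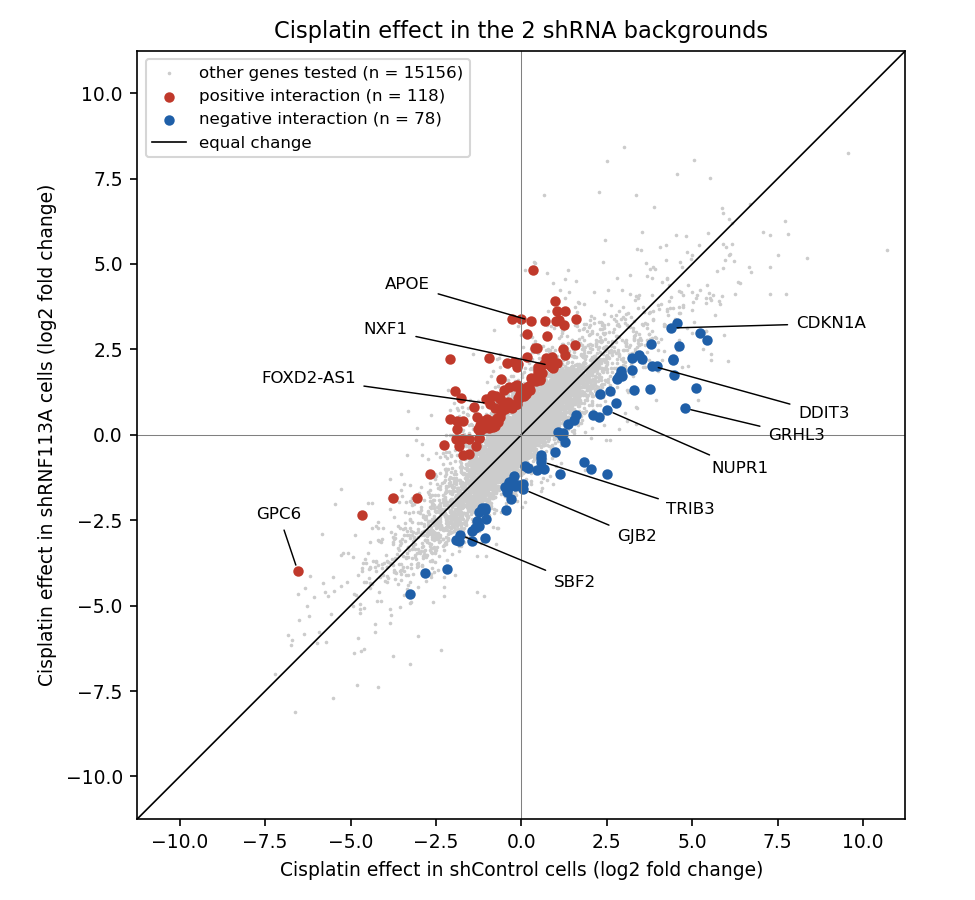
Change of each gene with Cisplatin in shControl cells (x axis) against its change in shRNF113A cells (y axis), both as log2 fold change. Grey points are genes tested and not called, red points the 118 genes with a positive interaction, blue points the 78 with a negative interaction, and the diagonal marks an equal change. GRHL3 and NUPR1 lie far below the diagonal at the right, since they rose much less in shRNF113A cells, and GPC6 lies above it at the far left.

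The interactions took 4 shapes in each direction, according to which of the 2 Cisplatin effects passed an adjusted p of 0.05. Among the 118 positive genes, 45 rose with Cisplatin in shRNF113A cells alone, with a median change of -0.00 in shControl cells and 1.44 in shRNF113A cells. Another 37 fell less or not at all in shRNF113A cells (medians -1.31 and 0.20), 22 rose more (0.91 and 2.26) and 14 fell in shControl cells and rose in shRNF113A cells (-0.81 and 0.97). The positive genes were thus mostly genes that ended higher in the doubly treated cells, through a rise of their own or through a missing fall. Among the 78 negative genes, 37 rose less or not at all in shRNF113A cells (medians 3.24 and 1.64), 21 fell more (-1.25 and -2.67), 12 fell in shRNF113A cells alone (-0.15 and -1.41) and 8 rose in shControl cells and fell in shRNF113A cells (0.82 and -0.79). The most frequent negative shape was thus the smaller rise. In these 37 genes the median difference of shRNF113A from shControl cells was 0.76 without and -0.63 with Cisplatin. A higher untreated level and a lower treated level both entered it.

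The same genes can be read from the side of RNF113A. Of the 118 positive genes, 74 were higher in shRNF113A cells with Cisplatin and did not pass the test without it, and 20 were lower in untreated shRNF113A cells and did not pass the test with Cisplatin. Of the 78 negative genes, 33 were lower in shRNF113A cells with Cisplatin only, and 18 were higher in shRNF113A cells without Cisplatin only. The choice of genes by their interaction favours these shapes, and their shares over all genes were not counted. The mean that lay farthest from the other 3 on the log2 scale was that of shRNF113A + cisplatin, on the high side, in 56 of the positive genes (47.5%, against 20.5% of all genes), and on the low side in 26 of the negative genes (33.3%, against 18.7%). In 32 positive genes (27.1%, against 9.73% of all genes) shControl + cisplatin stood apart on the low side, and in 22 negative genes (28.2%, against 11.3%) on the high side. The side on which a mean stands apart is tied to the sign of the interaction. The shares of all genes, which mix both signs, are therefore not a like background for one direction. On either side together, shRNF113A + cisplatin was the mean farthest from the others in 39.2% of all genes tested. The same share was 47.5% of the positive and 33.3% of the negative genes. Of all genes tested, Cisplatin raised 28% and lowered 27% in shControl cells and raised 32.4% and lowered 27.8% in shRNF113A cells. shRNF113A cells were higher in 12.8% and lower in 14.6% of genes without Cisplatin, and higher in 21.1% and lower in 21.8% with it. The 3 libraries of one condition lay all above or all below the 3 of the other in 56.1% and 74.2% of genes for Cisplatin in shControl and shRNF113A cells, and in 43.3% and 57.7% for shRNF113A against shControl without and with Cisplatin. On the linear CPM scale 4 positive and 8 negative genes had an interaction of the other sign, 5 of the 8 being larger falls.

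**Figure D2:**
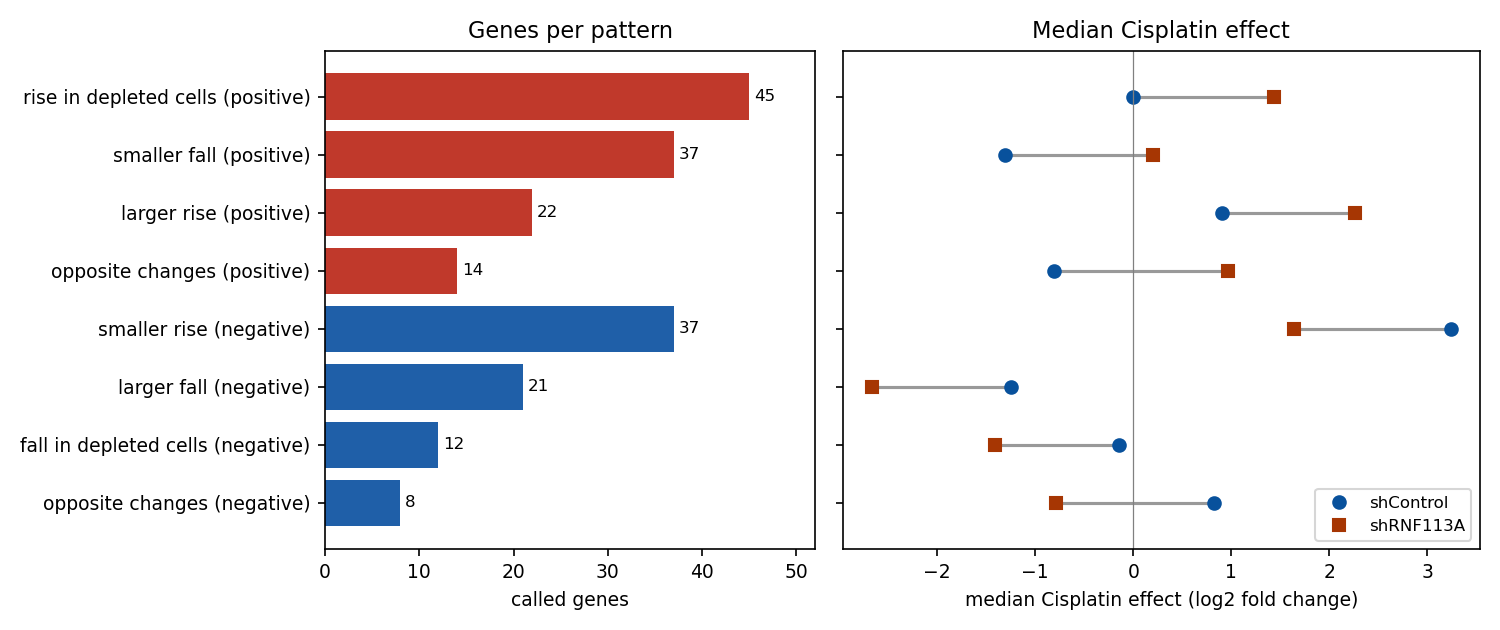
Left, number of called genes in each pattern of Cisplatin effects, red for positive and blue for negative interactions; "depleted" in the names stands for shRNF113A cells. Right, median log2 fold change with Cisplatin of the genes of each pattern in shControl cells (circles) and shRNF113A cells (squares), with a line joining both. The 37 smaller rises run from 3.24 to 1.64 and the 21 larger falls from -1.25 to -2.67.

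The ATF4 and CHOP stress response held 5 of the negative genes, DDIT3, NUPR1, TRIB3, AARS and CDKN1A. Of 36 genes on the list 35 were tested, and 5 called negative are 14.3% of them, against 0.508% of all genes. Without the 2-fold limit 11 had a negative interaction at an adjusted p under 0.05 (2.27% of all genes did) and none a positive one (1.98%), and the median interaction was -0.49 against 0.00 for all genes. Cisplatin raised 14 and lowered 8 of the 35 in shControl cells, and raised 8 and lowered 16 in shRNF113A cells. The list carries factors of the response, genes of amino acid synthesis and uptake, and other targets. The factors held 3 of the called genes among 7, the other targets 2 among 17, and the amino acid genes none among 11. Without both shControl replicate 2 libraries 3 of the 35 were called, against 522 of all 15459 genes tested, and the median was -0.34. This list and those below were chosen with earlier results of these data known. Their shares of called genes are therefore descriptions and no tests of the lists. NUPR1 had been reported by the study as an interaction gene from these same libraries. CDKN1A is also a p53 target, counts in both lists and is described with the p53 targets.

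The promoter of DDIT3 is shown because it holds a match to the AP-1 motif, which was among the stress factor motifs searched. The window runs from 250 bases before the RefSeq start of the gene to 50 bases after it, 5′ to 3′ on the strand of the gene (RefSeq, GRCh38.p14), at chr12:57520465-57520764 on the minus strand. Capitals mark TGACTCA, 241 bases before the start, which is the AP-1 motif TGANTCA, and CCAAT boxes read on either strand (CCAAT or ATTGG).
DDIT3: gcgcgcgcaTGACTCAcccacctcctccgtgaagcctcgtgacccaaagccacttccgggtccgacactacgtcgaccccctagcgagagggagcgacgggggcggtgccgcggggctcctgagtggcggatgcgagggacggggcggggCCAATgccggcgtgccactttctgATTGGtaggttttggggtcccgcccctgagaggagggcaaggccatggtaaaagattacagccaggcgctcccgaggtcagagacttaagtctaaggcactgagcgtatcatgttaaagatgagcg

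All windows of the same length were searched on both strands. Of the 15352 genes tested 11904 had a window, and a gene counted when any of its windows held the motif. DDIT3 had 2 windows, of which 1 is shown. The CHOP-ATF4 composite element TGATGNAAN was found in 2.73% of all genes with a window. It was found in 7 of the 60 negative genes with a window (11.7%: AARS, BCAT1, FAXDC2, PDE4C, SBF2, SEMA3C and TLR3). The same held for 1 of 76 positive genes (1.32%) and 7 of 28 genes of the ATF4 and CHOP list (25.0%). The AP-1 motif was in 7.36% of all genes with a window, 8.33% of negative and 6.58% of positive ones. DDIT3 held no match to the composite element or to the C/EBP-ATF motif ATTGCATCA. Motif matches are letters in a window and not evidence of binding.

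NUPR1, a small chromatin-associated stress protein induced through ATF4, stood at 11.8, 13.8 and 13.4 CPM in shControl untreated cells and at 75.7, 75.6 and 71.5 CPM with Cisplatin. In shRNF113A cells it stood at 4.87, 4.31 and 5.26 CPM without and at 8.04, 8.38 and 7.26 CPM with Cisplatin. The 4 conditions did not overlap, and the doubly treated cells lay below even the untreated shControl cells. The rise of 2.51 on the log2 scale in shControl cells stood against 0.72 in shRNF113A cells, an interaction of -1.80 ± 0.14 (SE, adjusted p = 0.000258). shRNF113A cells had less NUPR1 in both states, by -1.43 without and by -3.23 with Cisplatin.

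DDIT3 encodes CHOP, a transcription factor of the terminal stress response. It stood at 11.8, 8.94 and 11.4 CPM in shControl untreated cells, at 118, 205 and 134 CPM in shControl + cisplatin cells, at 8.36, 7.80 and 8.33 CPM in shRNF113A untreated cells and at 40.1, 35.5 and 23.4 CPM in shRNF113A + cisplatin cells. Every Cisplatin library was above every untreated one, and those of shRNF113A cells were all below those of shControl cells. DDIT3 rose by 3.83 and by 2.02 on the log2 scale, with an interaction of -1.81 ± 0.31 (adjusted p = 0.0125). The difference between the backgrounds was -0.39 without Cisplatin (adjusted p = 0.221) and -2.21 with it (adjusted p = 2.52e-05).

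TRIB3, a pseudokinase that ATF4 and CHOP induce, changed in opposite directions. Its CPM were 126, 111 and 135 in shControl untreated cells, 159.5, 239 and 159 with Cisplatin, 119, 126 and 126 in shRNF113A untreated cells and 76.1, 77.7 and 61.6 in shRNF113A + cisplatin cells. The untreated groups overlapped, and the Cisplatin groups lay on either side of them. TRIB3 rose by 0.59 in shControl cells (adjusted p = 0.00503) and fell by 0.78 in shRNF113A cells (adjusted p = 0.000664), an interaction of -1.37 ± 0.21 (adjusted p = 0.00979).

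AARS, the alanyl-tRNA synthetase, was close to the 2-fold limit. It stood at 428, 354 and 393 CPM in shControl untreated cells, 320.5, 354 and 339 CPM with Cisplatin, 426, 414 and 426 CPM in shRNF113A untreated cells and 194, 194 and 156 CPM in shRNF113A + cisplatin cells. The doubly treated libraries were below all others. The change was -0.21 in shControl cells (adjusted p = 0.0751) and a fall of 1.22 in shRNF113A cells, and the interaction was -1.0 ± 0.14 (adjusted p = 0.00674). It went under the 2-fold limit without shControl untreated replicate 2 (-0.93), shRNF113A untreated replicate 1 (-0.998), shRNF113A untreated replicate 3 (-0.997), shRNF113A + cisplatin replicate 3 (-0.91) or both shControl replicate 2 libraries (-0.90).

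A further pair of metabolic genes outside the list had the same shape as TRIB3. CBS, which joins serine and homocysteine in the transsulfuration pathway, stood at 27.4, 15.7 and 29.0 CPM in shControl untreated and at 48.8, 43.5 and 49.3 CPM in shControl + cisplatin cells. Its levels in shRNF113A cells were 16.9, 19.7 and 20.3 CPM without and 13.6, 13.5 and 13.0 CPM with Cisplatin. CBS rose by 0.98 in shControl cells and fell by 0.50 in shRNF113A cells, with an interaction of -1.48 ± 0.25 (adjusted p = 0.0125). ALDH1L2, the mitochondrial 10-formyltetrahydrofolate dehydrogenase of one-carbon metabolism, went from 15.1, 13.4 and 14.5 to 22.7, 18.6 and 23.2 CPM in shControl cells and from 11.3, 9.35 and 10.5 to 6.49, 6.03 and 7.0 CPM in shRNF113A cells. In both backgrounds the treated and untreated libraries did not overlap, and the interaction was -1.26 ± 0.16 (adjusted p = 0.00639).

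**Figure D3:**
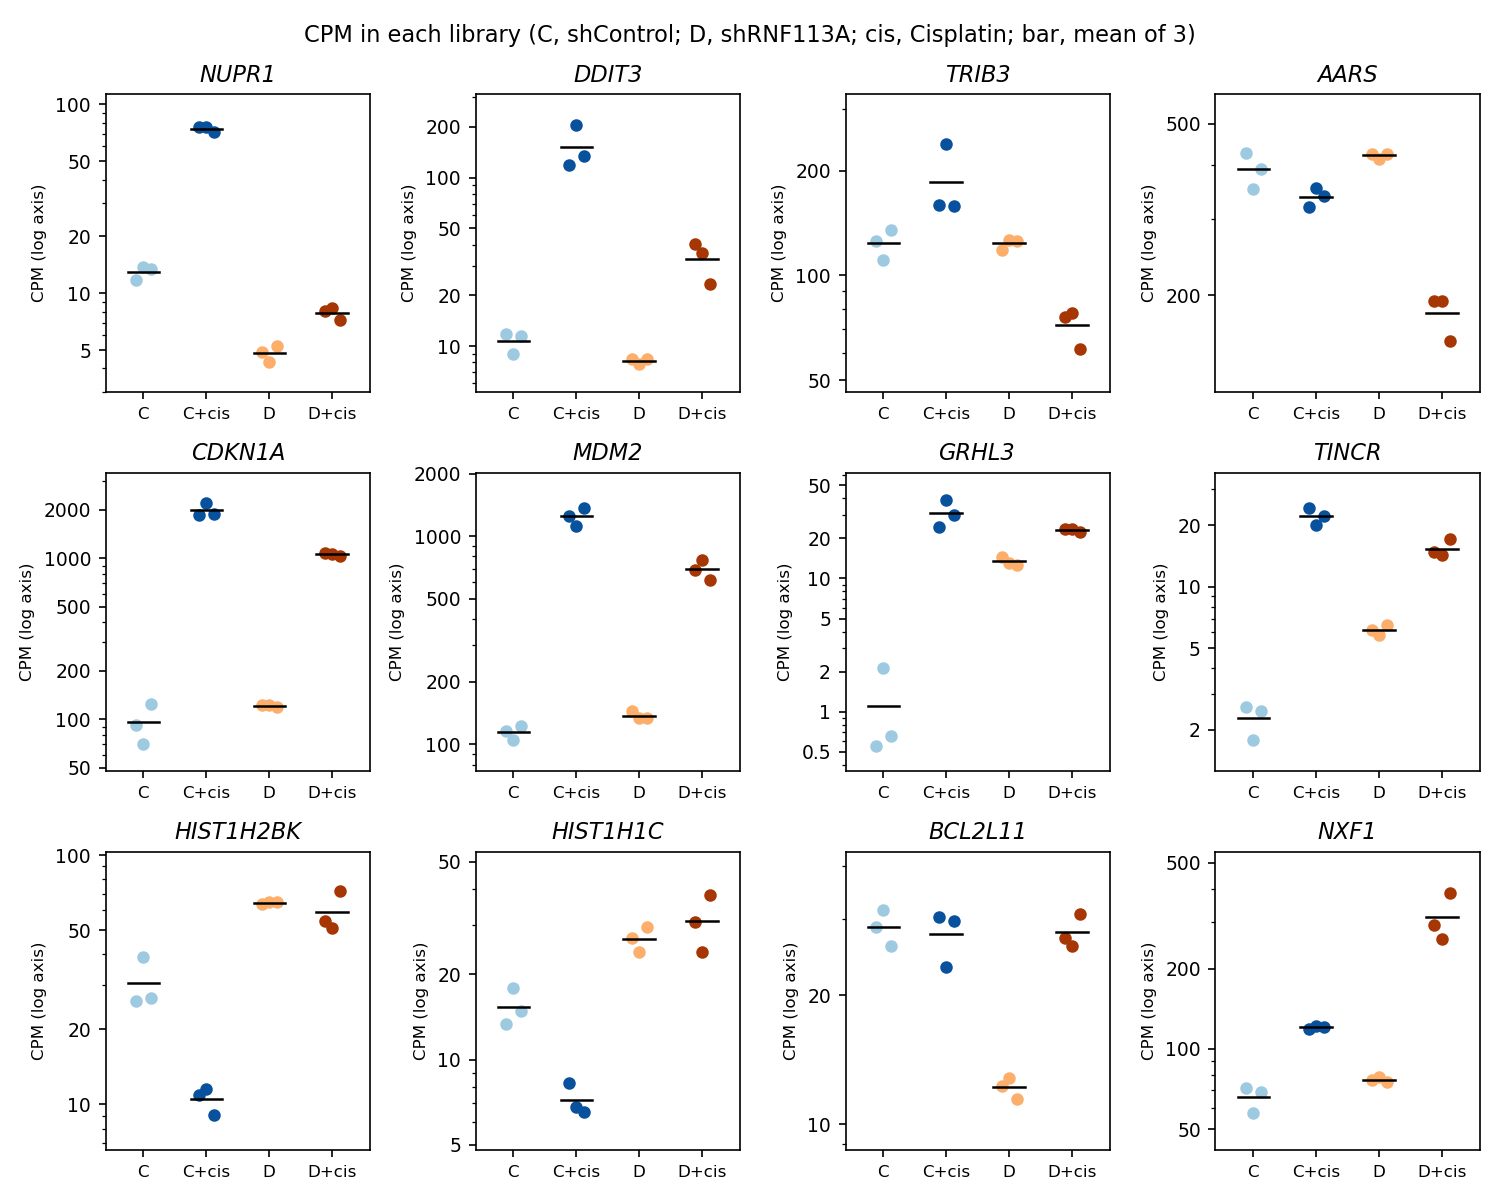
CPM of 12 genes in each of the 12 libraries, on log axes, with 3 points and the mean as a bar for each condition (C, shControl; D, shRNF113A; cis, Cisplatin). NUPR1 and DDIT3 show blunted rises, TRIB3 and AARS end lowest in shRNF113A + cisplatin cells, HIST1H2BK and HIST1H1C fall in shControl cells alone, and NXF1 rises farther in shRNF113A cells.

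Most p53 targets rose in both backgrounds, and a minority had a negative interaction. All 33 genes on the list were tested. Cisplatin raised 30 of them in shControl and 31 in shRNF113A cells. CDKN1A, MDM2 and SPATA18 were called negative (9.09% of the list, against 0.508% of all genes), 10 had a negative interaction at an adjusted p under 0.05 and 27 a negative sign, against 6 with a positive one. The median interaction was -0.40. Without both shControl replicate 2 libraries it was -0.31, with 2 genes of the list called against 522 of all 15459 tested.

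CDKN1A, which encodes the p21 inhibitor of cyclin-dependent kinases, stood at 91.6, 70.5 and 125 CPM in shControl untreated and at 1858, 2199 and 1898 CPM in shControl + cisplatin cells. In shRNF113A cells the values were 122, 123 and 119 CPM without and 1078, 1061 and 1038 CPM with Cisplatin. Untreated libraries overlapped and treated ones did not. The rise was 4.37 in shControl and 3.13 in shRNF113A cells, and the interaction -1.25 ± 0.22 (adjusted p = 0.0134). Without both shControl replicate 2 libraries it was -0.99, just under the 2-fold limit.

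MDM2, the E3 ligase that degrades p53, was at 116, 105 and 123 CPM in shControl untreated, 1252, 1125 and 1366 CPM in shControl + cisplatin, 144, 133 and 134 CPM in shRNF113A untreated and 688, 773 and 618 CPM in shRNF113A + cisplatin cells. It was higher than in shControl cells in every untreated shRNF113A library and lower in every treated one. Its interaction was -1.11 ± 0.14 (adjusted p = 0.00626), from a difference of 0.26 without (adjusted p = 0.0725) and -0.85 with Cisplatin (adjusted p = 7.01e-05). SPATA18, which takes part in the quality control of mitochondria, went from 5.44, 6.27 and 6.44 to 41.3, 43.9 and 46.0 CPM in shControl cells and from 9.18, 7.93 and 8.52 to 26.4, 29.3 and 28.8 CPM in shRNF113A cells. Its interaction was -1.13 ± 0.13 (adjusted p = 0.0046).

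The strongest negative interactions included genes of squamous and barrier differentiation that shRNF113A cells already expressed at a higher level. On this list 30 of 44 genes were tested, GRHL3 and TINCR were called negative (6.67%) and S100A2 positive (3.33%), and the median interaction was -0.21. The S100A2 call was lost in 10 of 17 alternatives. Without both shControl replicate 2 libraries 6 genes of the list were called, against 522 of all 15459 genes tested. GRHL3, a Grainyhead-like transcription factor of epidermal barrier formation, stood at 0.553, 2.11 and 0.663 CPM in shControl untreated cells and at 24.3, 38.5 and 30.0 CPM with Cisplatin. In shRNF113A cells it stood at 14.6, 13.1 and 12.6 CPM without and at 23.4, 23.5 and 22.2 CPM with Cisplatin. The treated shControl libraries lay just above the treated shRNF113A ones, and the untreated shControl libraries far below all others. The difference of the backgrounds was 3.58 without Cisplatin (adjusted p = 2.39e-05) and -0.43 with it (adjusted p = 0.24), and the interaction was -4.0 ± 0.45 (adjusted p = 0.0046).

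TINCR, an RNA induced in epidermal differentiation, behaved alike at lower amplitude. It went from 2.60, 1.78 and 2.47 to 24.4, 20.0 and 22.3 CPM in shControl cells and from 6.14, 5.80 and 6.49 to 14.7, 14.3 and 17.2 CPM in shRNF113A cells. The rise of 3.28 against 1.32 gave an interaction of -1.96 ± 0.20 (adjusted p = 0.00312). CRIP2, a LIM-domain protein, showed the same order of conditions at higher counts, from 13.9, 34.0 and 21.4 to 118, 119 and 97.6 CPM in shControl and from 46.2, 59.1 and 43.0 to 71.2, 63.0 and 77.4 CPM in shRNF113A cells (interaction -1.76 ± 0.34, adjusted p = 0.0189).

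In GJB2, which encodes the gap junction protein connexin 26, Cisplatin removed the difference from the other side. It was at 3.90, 4.41 and 3.61 CPM in shControl untreated, 4.16, 4.09 and 4.11 CPM in shControl + cisplatin and 4.39, 4.73 and 3.33 CPM in shRNF113A + cisplatin cells, and at 13.5, 13.1 and 11.0 CPM in shRNF113A untreated cells alone. GJB2 fell by 1.59 in shRNF113A cells with an interaction of -1.65 ± 0.21 (adjusted p = 0.00636), and the difference between the backgrounds with Cisplatin was 0.01 (adjusted p = 0.944). IL1RAP, the accessory chain of the interleukin-1 receptor, came down part of the way. It stood at 6.58, 7.29 and 6.36 CPM in shControl untreated, 8.21, 6.35 and 8.75 CPM in shControl + cisplatin, 25.9, 23.8 and 22.6 CPM in shRNF113A untreated and 11.0, 12.9 and 12.9 CPM in shRNF113A + cisplatin cells, with an interaction of -1.18 ± 0.18 (adjusted p = 0.00979).

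The 21 larger falls were mainly long genes. Their median span, from the first to the last annotated base, was 177 kb against 25.9 kb for all genes tested, and 17 of the 21 spanned 100 kb or more (81.0%, against 16.4% of all genes). Genes that fell with Cisplatin in shControl cells were themselves long, with a median of 61.7 kb and 37.3% at 100 kb or more. SBF2, a guanine nucleotide exchange factor of Rab GTPases that spans 516 kb on chromosome 11 (hg19, 9800214 to 10315754), stood at 72.7, 70.3 and 66.5 CPM in shControl untreated and at 21.0, 17.2 and 21.9 CPM in shControl + cisplatin cells. In shRNF113A cells it stood at 56.1, 52.3 and 47.8 CPM without and at 6.40, 7.60 and 6.55 CPM with Cisplatin. No condition overlapped another. The fall of 1.8 against 2.92 gave an interaction of -1.12 ± 0.15 (adjusted p = 0.00672), while on the linear scale SBF2 lost 4.58 CPM less in shRNF113A cells, which started lower.

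CADM1, a cell adhesion molecule of the immunoglobulin family that spans 331 kb, went from 37.1, 34.3 and 35.5 to 16.2, 16 and 18.6 CPM in shControl cells and from 28.0, 26.0 and 26.7 to 6.46, 6.12 and 5.76 CPM in shRNF113A cells. The drop of 1.07 became one of 2.14, an interaction of -1.07 ± 0.12 (adjusted p = 0.0046). SLC6A9, the glycine transporter GlyT1, spans 35 kb only and went from 14.5, 14.1 and 14.8 to 10.3, 12.4 and 9.77 CPM in shControl cells and from 19.4, 21.3 and 20.8 to 6.53, 5.94 and 6.70 CPM in shRNF113A cells (interaction -1.27 ± 0.15, adjusted p = 0.0046).

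RFX3, a transcription factor of ciliary genes that spans 308 kb, passed the test of a fall in shRNF113A cells alone. Its CPM were 8.29, 8.08 and 8.51 in shControl untreated, 5.34, 6.01 and 6.98 in shControl + cisplatin, 7.86, 7.64 and 7.90 in shRNF113A untreated and 2.07, 2.01 and 0.973 in shRNF113A + cisplatin cells. The change was -0.44 in shControl cells (adjusted p = 0.076) and -2.20 in shRNF113A cells (adjusted p = 3.43e-06), and the interaction was -1.76 ± 0.29 (adjusted p = 0.0118).

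Span was related to the interaction over all genes and not in the called ones alone. The median interaction was 0.19 in 2040 genes under 5 kb, 0.10 in 4505 genes of 5 to 20 kb, -0.20 in 1566 genes of 100 to 200 kb, -0.35 in 795 genes of 200 to 500 kb and -0.12 in 162 genes of 500 kb or more. Over the fits that each lacked 1 library the medians ranged from 0.14 to 0.23 under 5 kb and from -0.46 to -0.28 at 200 to 500 kb. The share called positive was 2.21% under 5 kb, 0.128% at 100 to 200 kb, 0.503% at 200 to 500 kb and 0.617% at 500 kb or more, and the share called negative was 0.294%, 0.83%, 1.51% and 1.85%. Positive genes as a group were short, with a median span of 6.72 kb and 7 of 118 at 100 kb or more (5.93%), and 20 of them had a single exon (16.9%, against 5.06% of all genes and none of the 78 negative genes). Of the 104 positive genes with a biotype in the annotation, 20 were long noncoding RNAs (19.2%, against 5.48% of all genes and 2 of the 78 negative genes).

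**Figure D4:**
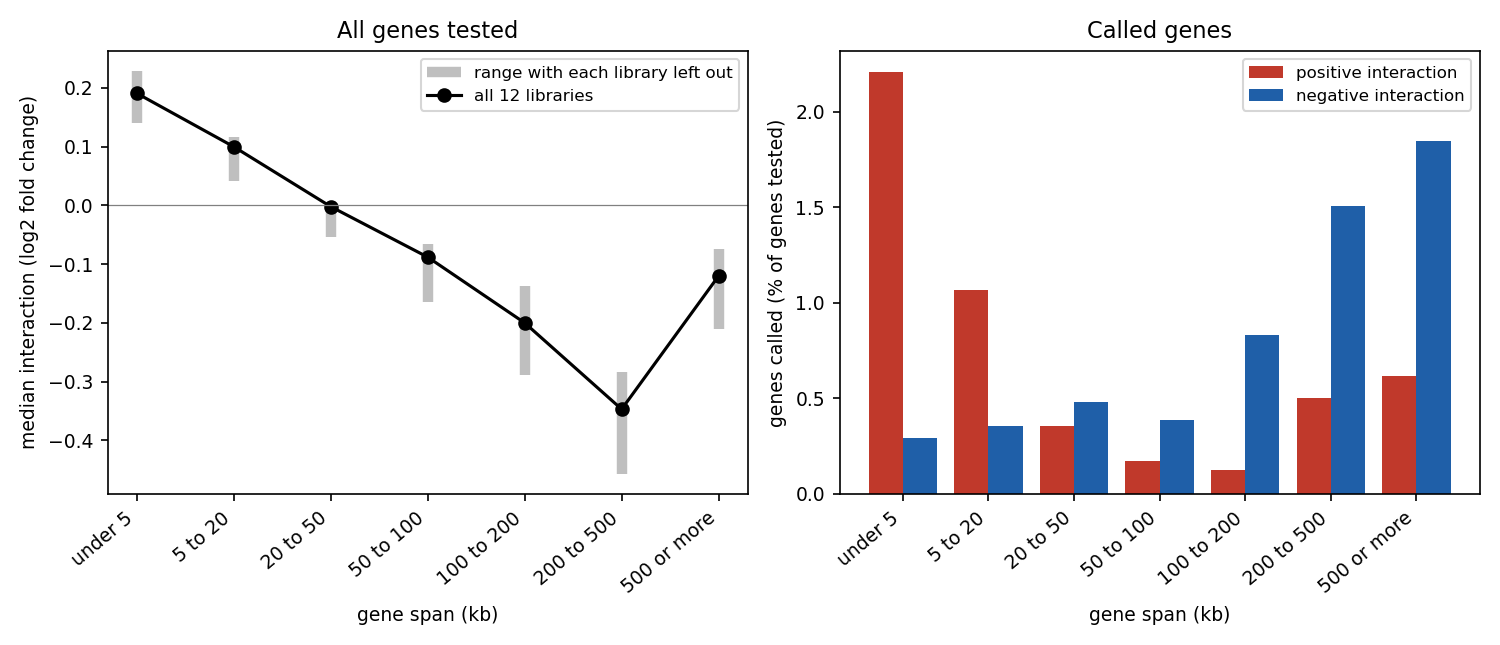
Left, median interaction (log2) of all genes tested by gene span in kb; points are the medians with all 12 libraries and grey bars the range with each library left out. Right, percent of the genes of each span called with a positive (red) or a negative (blue) interaction. The median runs from 0.19 under 5 kb to -0.35 at 200 to 500 kb.

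Reads in introns were compared alone and as a ratio to exonic reads, of which the second is not independent of the gene counts. Intronic reads made up 6.98% to 7.28% of genic reads in the 3 shRNF113A + cisplatin libraries and 1.56% to 4.3% in the other 9, where shControl + cisplatin replicate 3 (4.3%) stood above replicates 1 and 2 (2.56% and 1.70%). Of 9557 genes with enough intronic reads, 367 had a higher ratio of intronic to exonic reads in the interaction (3.84%) and 1 a lower one (0.0105%), with a median of 0.47. Among called genes, 13 of 38 negative ones that could be measured had a higher ratio, and 0 of 33 positive ones. This split follows in part from the choice of the genes by their exonic counts, which are the denominator of the ratio, so that it is given as a description. Intronic reads alone had a median interaction of -0.337 in the 38 negative genes and of 0.433 in all genes measured. The count of 368 rested on single libraries, as it ran from 22 without shRNF113A + cisplatin replicate 3 to 5236 without shControl + cisplatin replicate 3. It stayed within 1.5 times of 368 only without shControl + cisplatin replicate 2, while the other 9 such counts ran from 35 to 624.

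In SBF2 intronic reads were 10.2%, 32.4%, 11.4% and 53.7% of genic reads in the means of shControl untreated, shControl + cisplatin, shRNF113A untreated and shRNF113A + cisplatin cells. Its ratio interaction was 1.09, while its intronic reads alone had an interaction of -0.01 (adjusted p = 0.989). The ratio thus rose as the exonic reads fell, and the cause was not tested. In RFX3 the shares were 14.4%, 16.9%, 16.8% and 57.9%, with a ratio interaction of 2.45 and an interaction of intronic reads of 0.62 (adjusted p = 0.316). The interaction of intronic reads alone had a positive sign in 8545 of the 9557 genes. Of the 33 positive genes measured, which are a minority of the 118, 16 had a positive interaction of intronic reads at an adjusted p under 0.05, against 2.86% of all genes measured (0.0314% had a negative one), among them PIF1 (1.5, adjusted p = 0.0192), MYO1D (1.42, adjusted p = 0.0294), NXF1 (1.49, adjusted p = 0.026) and HIST1H2BK (1.47, adjusted p = 0.0124). In HIST1H2BK, reads outside the annotated exons made up 74.8% to 76.8% of genic reads in the means of the 4 conditions. HIST1H2AC, also among the 16, has a single annotated exon. In both genes such reads may come from the transcripts that the gene counts measure, and they are no clear separate readout there. High shares in all 4 conditions were not limited to these histones. Among the 16, the means were 85.3% to 87.7% in C17orf67, 67.9% to 72.5% in AMH and 40.6% to 57.2% in PIF1. They were 1.89% to 4.81% in NXF1 and 3.40% to 17.5% in MYO1D. For how many of the 16 genes these reads are a separate readout was not tested. The number of genes with an interaction of intronic reads, 276 in all, ran from 1 to 3640 with single libraries left out, at the same 2 libraries as for the ratio.

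Histones were the list with the most positive genes. Of 24 replication-dependent histone genes 16 were tested, 7 were called positive (43.8%, against 0.769% of all genes) and all 16 had a positive sign, with a median interaction of 1.53. Without both shControl replicate 2 libraries 10 were called, against 522 of all 15459 genes tested. Without shControl + cisplatin replicate 3 there were 5, against 135 of all 15603. Each of these fits again had 16 positive signs. Among the 7, the HIST1H3B call was lost in 8 and the HIST1H4H call in 9 of 17 alternatives. Their counts were low, with highest means of 1.86 and 2.00 CPM, both in shRNF113A + cisplatin cells. In shControl cells Cisplatin lowered 13 of the 16, and in shRNF113A cells it lowered 2 and raised 3. Their summed level was 59.4, 84.6 and 74.4 CPM in shControl untreated, 29.5, 27.0 and 23.7 CPM in shControl + cisplatin, 124, 125 and 134 CPM in shRNF113A untreated and 119, 106 and 151 CPM in shRNF113A + cisplatin cells. The summed level was higher in shRNF113A cells in both states, and HIST1H2BK made up a large part of it. Of the 16 genes 7 passed the test of a higher level in shRNF113A cells without and 12 with Cisplatin. Over all called genes 11 bore histone symbols, all positive, and 7 of these were on the list. How many of the genes tested bore histone symbols was not counted, so that no share can be given. Histone genes have near-identical copies, so that the counts of single members are uncertain, and the genes of DNA replication and the G1/S transition, 42 tested, held no called gene and had a median of 0.05.

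The promoters of HIST1H2AC and HIST1H2BK are shown because both carry several CCAAT boxes. Such boxes were found in 42.3% of all genes with a window, 48.7% of positive and 46.7% of negative ones. HIST1H2BK had 2 windows, of which 1 is shown. The windows are chr6:26123922-26124221 on the plus strand for HIST1H2AC (H2AC6 in RefSeq) and chr6:27146809-27147108 on the minus strand for HIST1H2BK (H2BC12), in GRCh38.p14. Capitals mark CCAAT on either strand, with 3 matches in HIST1H2AC and 6 in HIST1H2BK. The HIST1H2AC window is shared with HIST1H2BC, which is transcribed away from it on the other strand and was also called positive (interaction 1.97).
HIST1H2AC: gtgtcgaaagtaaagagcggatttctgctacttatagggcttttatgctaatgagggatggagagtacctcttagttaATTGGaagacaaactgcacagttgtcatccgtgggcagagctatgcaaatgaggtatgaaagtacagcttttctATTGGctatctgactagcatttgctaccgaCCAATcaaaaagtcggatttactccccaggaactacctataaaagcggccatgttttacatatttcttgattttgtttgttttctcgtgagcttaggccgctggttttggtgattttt
HIST1H2BK: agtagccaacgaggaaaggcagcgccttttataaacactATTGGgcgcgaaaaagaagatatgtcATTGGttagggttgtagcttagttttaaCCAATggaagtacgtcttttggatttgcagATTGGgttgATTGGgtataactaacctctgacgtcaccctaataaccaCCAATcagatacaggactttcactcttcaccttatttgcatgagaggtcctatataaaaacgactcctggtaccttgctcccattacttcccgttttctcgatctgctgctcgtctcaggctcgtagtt

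HIST1H2BK stood at 25.9, 39.1 and 26.8 CPM in shControl untreated, 10.9, 11.5 and 9.09 CPM in shControl + cisplatin, 63.4, 64.7 and 64.6 CPM in shRNF113A untreated and 54.4, 51.1 and 71.6 CPM in shRNF113A + cisplatin cells. It fell by 1.55 in shControl cells, its change in shRNF113A cells was -0.12 (adjusted p = 0.529), and the interaction was 1.42 ± 0.23 (adjusted p = 0.0118). HIST1H1C, a linker histone, went from 13.3, 18.0 and 14.8 to 8.23, 6.81 and 6.53 CPM in shControl cells and from 26.9, 24.1 and 29.5 to 30.6, 23.9 and 38.3 CPM in shRNF113A cells, where the groups overlapped. Its interaction was 1.3 ± 0.24 (adjusted p = 0.0153). HIST1H2AC fell in both, from 3.95, 4.71 and 5.20 to 0.684, 0.890 and 0.575 CPM and from 7.25, 8.19 and 7.63 to 3.94, 3.18 and 3.29 CPM, with an interaction of 1.54 ± 0.25 (adjusted p = 0.0118) that was -0.312 CPM on the linear scale.

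The other smaller falls named here did not belong to 1 list. PIF1, a DNA helicase of telomeres and replication forks, stood at 22.3, 19.5 and 22 CPM in shControl untreated, 7.45, 5.05 and 6.73 CPM in shControl + cisplatin, 27.7, 30.6 and 26.8 CPM in shRNF113A untreated and 25.5, 21.9 and 31.0 CPM in shRNF113A + cisplatin cells. The shControl + cisplatin libraries alone were low, with an interaction of 1.61 ± 0.21 (adjusted p = 0.00639). PIF1 was the single called gene of 53 DNA repair genes (1.89% called positive, against 0.769% of all genes). GPC6, a glypican and the longest of these genes with over 1000 kb, fell in both backgrounds, from 34.2, 49.3 and 31.4 to 0.184, 0.433 and 0.575 CPM in shControl and from 20.0, 19.1 and 13.8 to 1.03, 0.866 and 1.46 CPM in shRNF113A cells. Every treated library was under 1.5 CPM, and the interaction of 2.56 ± 0.44 (adjusted p = 0.0126) compares losses of 6.54 and 3.99.

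MYO1D, an unconventional myosin that spans 385 kb, was high in shRNF113A cells in both states. It went from 25.0, 23.7 and 20.2 to 2.81, 2.62 and 2.81 CPM in shControl cells and from 67.7, 76.8 and 69.4 to 17.7, 19.4 and 22 CPM in shRNF113A cells. The fall of 3.06 against 1.86 gave an interaction of 1.2 ± 0.15 (adjusted p = 0.00626), with the other sign on the linear scale, since shRNF113A cells lost 31.4 CPM more (-31.4).

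BCL2L11 was among the 20 positive genes that were lower in shRNF113A cells without Cisplatin and did not pass the test with it. It encodes BIM, a pro-apoptotic BH3-only protein of the BCL2 family, and stood at 28.8, 31.6 and 26.1 CPM in shControl untreated, 30.3, 23.3 and 29.7 CPM in shControl + cisplatin, 12.3, 12.8 and 11.4 CPM in shRNF113A untreated and 27.1, 26.0 and 30.8 CPM in shRNF113A + cisplatin cells. Only the untreated shRNF113A libraries were low, and the treated libraries of both backgrounds overlapped (difference 0.01, adjusted p = 0.947). Its rise in shRNF113A cells was 1.2 and the interaction 1.25 ± 0.17 (adjusted p = 0.00639). BCL2L11 was the single called gene of 37 apoptosis regulators (2.7% called positive, against 0.769% of all genes).

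HOXB6, a homeobox transcription factor, rose above all other conditions. It stood at 7.10, 6.17 and 7.61 CPM in shControl untreated, 6.68, 5.68 and 7.45 CPM in shControl + cisplatin, 7.49, 9.29 and 6.86 CPM in shRNF113A untreated and 20.6, 18.0 and 23.8 CPM in shRNF113A + cisplatin cells (interaction 1.47 ± 0.22, adjusted p = 0.00979). AOC3, a copper amine oxidase of the cell surface, had the same shape from a lower base, with 1.46, 1.48 and 0.902, 1.32, 2.21 and 1.70, 1.54, 2.28 and 1.45, and 10.6, 8.93 and 11.2 CPM in the 4 conditions in the same order (interaction 2.10 ± 0.36, adjusted p = 0.0125). In both genes the shRNF113A + cisplatin libraries were all above the other 9.

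NXF1, the main export receptor of mRNA, rose in both backgrounds and farther in shRNF113A cells. It went from 71.5, 57.3 and 68.7 to 118, 122 and 121 CPM in shControl cells and from 76.2, 78.5 and 75.4 to 291, 259 and 385 CPM in shRNF113A cells. All treated libraries lay above all untreated ones, and the doubly treated ones highest. The interaction was 1.15 ± 0.18 (adjusted p = 0.00979), and 0.97 without shRNF113A + cisplatin replicate 3, the highest library. RSRP1, a protein rich in arginine and serine, went from 10.3, 12.6 and 10.1 to 14.0, 15.2 and 17.5 CPM in shControl cells and from 17.0, 17.0 and 14.9 to 55.8, 51.5 and 84.5 CPM in shRNF113A cells (interaction 1.47 ± 0.24, adjusted p = 0.0118). HSPB8, a small heat shock protein of chaperone-assisted autophagy, was the single called gene of 18 heat shock genes, of which 17 had a positive sign. The call made 5.56% of that list positive, against 0.769% of all genes. It went from 13.8, 16.8 and 16.3 to 39.1, 37.5 and 36.4 CPM in shControl cells and from 4.69, 5.12 and 5.57 to 24.6, 23.0 and 30.6 CPM in shRNF113A cells. HSPB8 was lower in shRNF113A cells in both states and rose 1.08 ± 0.17 more on the log2 scale (adjusted p = 0.00979), by 0.95 more without shRNF113A + cisplatin replicate 3, and by 1.09 CPM less on the linear scale (-1.09).

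The positive genes with opposite changes were short, and 7 of the 14 had a single exon. FOXD2-AS1, a noncoding RNA next to FOXD2, stood at 4.06, 3.54 and 4.59 CPM in shControl untreated, 2.29, 2.33 and 1.85 CPM in shControl + cisplatin, 3.31, 4.25 and 3.94 CPM in shRNF113A untreated and 6.43, 6.09 and 9.13 CPM in shRNF113A + cisplatin cells. The untreated groups overlapped, and the Cisplatin groups lay below and above them, with an interaction of 1.82 ± 0.27 (adjusted p = 0.00979). CTC-338M12.4, a transcript that overlaps TRIM52 on the other strand, did the same, with 5.17, 4.74 and 5.57, 2.79, 2.74 and 3.49, 4.61, 5.17 and 4.3, and 7.17, 7.48 and 9.65 CPM in the same order (interaction 1.56 ± 0.22, adjusted p = 0.00931).

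The lists together held 25 of the called genes among 724 tested (3.45%, against 1.28% of all genes), 14 positive and 11 negative, and 16 of the 28 lists held none. Among these were the unfolded protein response of the endoplasmic reticulum (27 tested, median 0.03), the spliceosome (37, median -0.06), G2/M and mitosis (41, median -0.01), NRF2 targets (27, median 0.03) and cholesterol synthesis (33, median -0.03). Cisplatin lowered 35 of the 41 mitotic genes in shControl and 37 in shRNF113A cells with a median change of -0.77 and -0.69. Of 56 cytosolic ribosomal protein genes 49 had a positive sign and none was called, with a median of 0.15 that was 0.08 with scaling from genes under 50 kb and 0.26 with scaling from longer ones. Lists of AP-1 and immediate early genes, MAPK feedback genes and EGFR ligands held no called gene either, and no member at an adjusted p under 0.05.

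**Figure D5:**
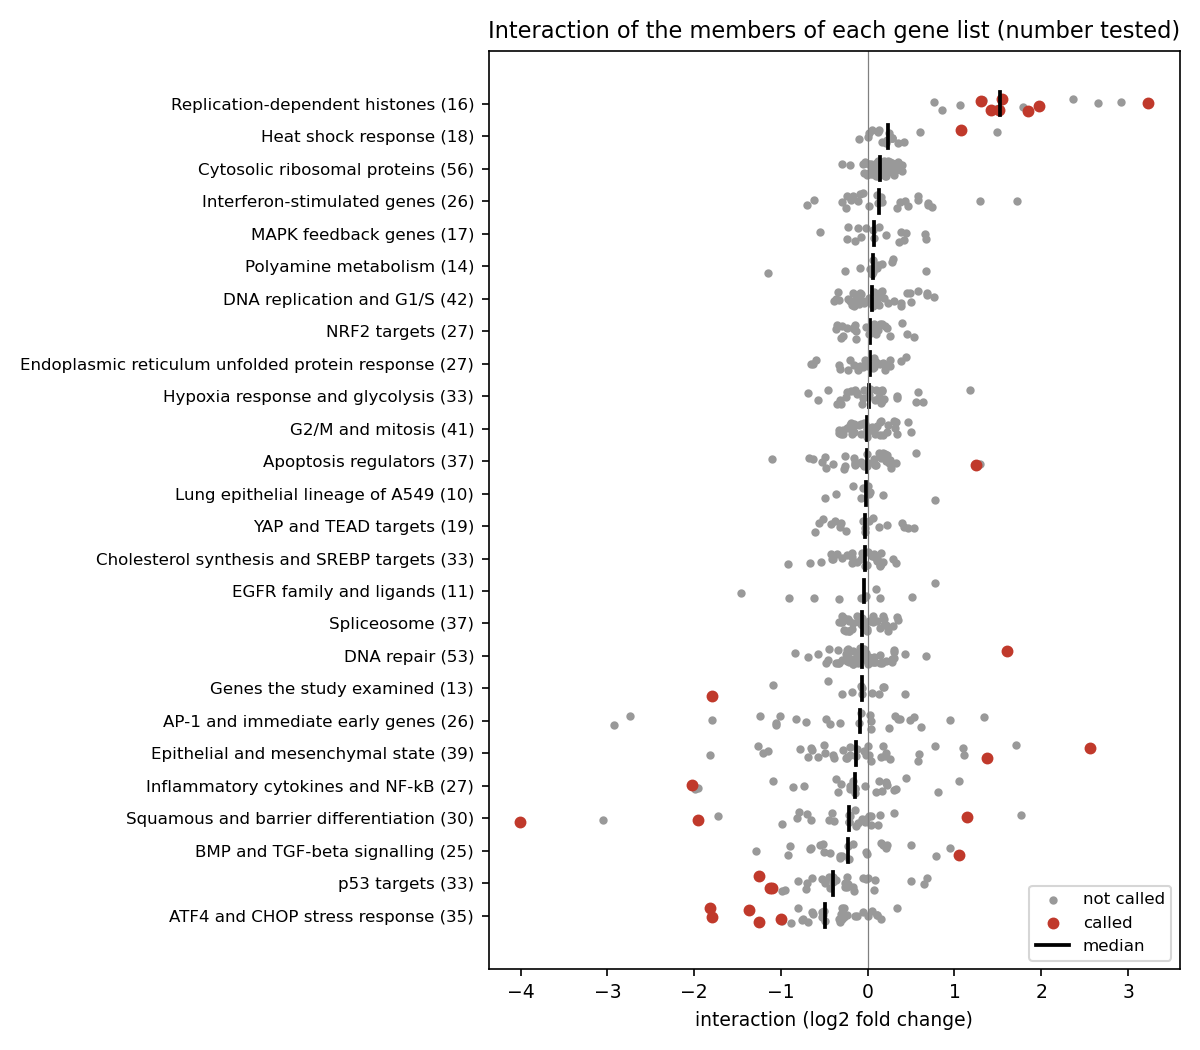
Interaction (log2) of each tested gene of the lists with at least 10 genes tested, the number tested in brackets. Grey points are genes not called and coloured points called genes. The 16 histone genes all lie above 0, and 29 of the 35 ATF4 and CHOP genes below it.

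Of 13 genes that the study examined in other assays, NUPR1 alone was called (7.69% called negative, against 0.508% of all genes). The study had tested the same interaction in these same libraries and reported NUPR1 from it. The call of NUPR1 is therefore a repeat and no separate evidence. TRIM29, CEACAM5, GFRA1 and SAT1 were also candidates that the study took from this sequencing. The 12 genes other than NUPR1 had adjusted p over 0.05, from GFRA1 at -1.10 ± 0.53 (adjusted p = 0.258) to RNF8 at 0.44 ± 0.13 (adjusted p = 0.0804). GFRA1, a coreceptor of GDNF, stood at 22.6, 11.7 and 24.8 CPM in shControl untreated and at 3.34, 2.60 and 2.06 CPM in shRNF113A untreated cells, with 16.7, 8.13 and 19 and 1.00, 1.14 and 0.599 CPM with Cisplatin, and was thus lower in shRNF113A cells in both states. All 10 markers of the lung epithelial lineage of A549 were tested and none was called. Of 15 markers of blood, endothelial and mesenchymal cells 7 were tested, and 8 had at most 14 reads in any library. ACTA2, a smooth muscle actin, was the single called one (6.41, 9.66 and 7.85, 44.0, 73.1 and 48.1, 11.4, 12.2 and 12.5, and 37.5, 35.7 and 39.7 CPM, interaction -1.14 ± 0.26, adjusted p = 0.0302), a call lost in 9 of 17 alternatives. It made 14.3% of the 7 markers negative, against 0.508% of all genes. The summed level of the 7 was 43.0 to 86.5 CPM in shControl untreated, 83.7 to 120 CPM in shControl + cisplatin, 64.2 to 67.4 CPM in shRNF113A untreated and 100 to 124 CPM in shRNF113A + cisplatin libraries, and its part in the result was not tested. In bulk samples such as these, fewer cells of a type and less RNA per cell cannot be told apart.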

How the data were processed

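Stranded mRNA libraries of A549 cells (TruSeq kit, paired reads of 76 bases, biological replicates per the study's methods) were sequenced by the authors. The submitters' processing notes name bcl2fastq 2.17, cutadapt, Bowtie2, STAR 2.5.2b, HTSeq, Cufflinks and Cuffdiff with hg19. The authors deposited read counts per gene from STAR, unstranded and for each strand. The column of the strand that matches the kit was used here, with groups from the labels. Rows that name no gene held 13.98% to 22.59% of read pairs and were left out. Exon coordinates came from the deposited annotation, and exonic and whole-gene counts per library from HTSeq gave intronic reads by subtraction. Deposited tables of the authors' own comparisons (Cuffdiff isoform tests and rMATS splicing events) were not used.

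Counts were analysed with edgeR 4.0.16 (R 4.3.3, limma 3.58.1): low counts were removed with filterByExpr, libraries were scaled by TMM, and 1 quasi-likelihood model with a mean for each of the 4 conditions was fitted to all 12 libraries. The interaction contrast and the 4 single contrasts were tested with two-sided quasi-likelihood F tests and Benjamini-Hochberg adjustment over all 15352 genes. Fold changes use the edgeR prior count, and log CPM a prior count of 2. Steps were tested on simulated counts. Genes overlapping on opposite strands were told apart by the strand of the reads, and near-identical copies were not. With 26220526 to 45721152 read pairs assigned per library, low counts limit the precision of genes under about 1 CPM.

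Named genes were the 12 largest positive and 12 largest negative interactions among called genes with at least 5 CPM in a condition, the 3 of smallest p in each pattern, called list members and genes the study examined. The members and gene lists were chosen with earlier results of these data known. DESeq2 1.42.0, other scalings, filters, count columns, replicate blocks and each library left out were run as alternatives. A few genes that this rule names are not reported here.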

Additional observations from a re-analysis of the deposited data

Results flagged for a closer look

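The change with Cisplatin differed between shControl and shRNF113A cells in 196 genes by the test of the difference itself, the interaction term. In 22 of them, 14 positive and 8 negative, Cisplatin moved the gene in opposite directions in both backgrounds, each with an adjusted p under 0.05; TRIB3, CBS, ALDH1L2 and FOXD2-AS1 are examples. The ratio of intronic to exonic reads changed differently with Cisplatin in both backgrounds in 368 genes by the same kind of test, 367 of them with a higher ratio. Intronic shares were higher in all 3 shRNF113A + cisplatin libraries (6.98% to 7.28%) than in the other 9 (1.56% to 4.3%), and their part in the gene-level interactions was not tested.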

How the results depend on the processing

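The 196 called genes were 151 to 290 under library-size scaling, DESeq2 size factors, both filters, the DESeq2 tests, the other count columns and thinning. They were 652 with an adjusted p alone, 4 with a test against a 1.5-fold change, and 522 without both shControl replicate 2 libraries. With 1 library left out they were 75 to 420; they stayed within 1.5 times of 196 without shControl untreated replicate 1, shControl + cisplatin replicate 2 or 3 or shRNF113A + cisplatin replicate 2, and did not without any of the other 8. A replicate block gave 217. Same-numbered shControl libraries deviated together (r from 0.48 to 0.731), as did shRNF113A replicates 1 (0.406) and 3 (0.299) but not 2 (-0.0647), and across the shRNAs r ran from -0.2 to 0.233; a replicate block within each shRNA gave 516. Called list members were 25, and 42 without both shControl replicate 2 libraries, where 522 of all 15459 genes tested were called. A 2-fold limit within each background gave 10 larger rises, 6 opposite changes and 26 genes with neither effect. The 368 intronic ratios were 22 to 5236, and the 276 intronic read calls 1 to 3640, with 1 library left out. On the linear CPM scale the sign turned for HIST1H2AC (-0.312), HSPB8 (-1.09), MAP2K6 (5.40), MYO1D (-31.4), SBF2 (4.58) and SERPINB5 (12.5). Of 50 named called genes 30 kept their call in all 17 alternatives run for single genes, and none turned its sign there. These were library-size scaling, the DESeq2 Wald test, unstranded counts, the replicate block and the fits with libraries left out. The causes were not tested.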
